A study of Mus musculus with 11 samples.

Results

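The Chd1 hairpin constructs 96526 and 96528 are different short hairpin RNAs (shRNAs) against the same gene, the chromatin-remodelling ATPase Chd1, and their libraries were compared line by line. The cells were WFU3, which are epithelial stem cells of the mouse prostate kept in culture. Within a study of control, Map3k7, Chd1 and double knockdown, each construct was sequenced in 3 lines, which gave 6 of the 11 libraries of the series: 3 with 96526 and 3 with 96528, paired by line. The 3 lines were line 4, which carried a control hairpin marked with GFP, and clones 1 and 7, which carried a GFP-marked hairpin against Map3k7 (TAK1). Each line also had a library with a control hairpin on the puromycin-marked plasmid in place of the Chd1 hairpin, and these 3 libraries served as the matched controls. The remaining 2 control libraries came from lines without a Chd1 construct and entered only an alternative fit. Line 4 and clones 1 and 7 had thus been infected with lentivirus for GFP-marked hairpins and then for puromycin-marked hairpins, and each grew from a single clone, per the labels' protocols.

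Passage numbers were 52 for 96526 and 50 for 96528 in line 4, with the control at 52. In clone 1 all 3 libraries were at passage 49. In clone 7 both constructs were at passage 48 and the control at 47. The labels do not say that libraries came from separate cultures, so p-values measure only the spread between these samples. Total counts were 15520540, 23163709 and 19937320 with 96526 (line 4, clone 1, clone 7) and 14846114, 22329280 and 17277242 with 96528, so that the 96526 library was the deeper of the pair in each line. The matched controls held 18859722, 15925142 and 14132371 counts.

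Chd1 slides and spaces nucleosomes and binds the histone mark of active promoters through its chromodomains. In prostate epithelium it is known as a gene lost in a subset of cancers, often together with MAP3K7, the kinase that carries TGF-beta and cytokine signals to NF-kB and JNK. An shRNA is processed into a short guide that pairs with its target mRNA, and a guide can also pair with other transcripts through its seed, which is why knockdown studies commonly carry more than 1 hairpin per gene.

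Libraries of 1 line resembled each other far more than libraries of 1 construct did. Levels are given in CPM, read counts scaled to a common library size. Over the 10311 genes that averaged 5 CPM or more, 91.2% of the variance of log2 CPM over the 9 libraries lay between the lines. The difference between the constructs took 1.41% and the difference between the controls and both constructs 1.72%, each on 1 degree of freedom. The rest took 5.71% on 4 degrees of freedom. Per degree of freedom, the construct share was thus no larger than the rest. Within a line, the root-mean-square log2 difference between 96526 and 96528 was 0.210 to 0.260. The 96526 libraries departed from their controls by 0.176 to 0.301 and the 96528 libraries by 0.245 to 0.409. Luminal keratins were abundant in all 9 libraries (Krt8 784 to 3915 CPM, Krt18 387 to 3080 CPM), as was the basal keratin Krt14 (545 to 2390 CPM). The basal keratins Krt5 and Krt15 were at or near 0 (at most 1.93 and 0.176 CPM), as was the prostate luminal gene Pbsn, at 0 in every library. Defining markers of immune cells (Adgre1, Cd3e), endothelium (Cdh5, Cldn5) and fibroblasts (Thy1, Lum) were also at 0 in all 9, and other members of these lists were not: Pdgfra measured 3.90 to 11.4 CPM, Cd68 0.936 to 1.67 CPM and Vwf 0.649 to 1.37 CPM, and Pdgfrb and Col3a1 reached 21.8 and 90.9 CPM, both in line 4.

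Chd1 mRNA stood below the matched control in all 6 construct libraries, and the constructs did not differ detectably in how far. In line 4, Chd1 (chr17:15704967-15772610, GRCm38) measured 195 CPM with the control hairpin, 145 with 96526 and 150 with 96528. In clone 1 it measured 219, 197 and 161 CPM, and in clone 7 it measured 237, 193 and 189 CPM. The residual level was 74.7%, 89.7% and 81.5% of control with 96526 (line 4, clone 1, clone 7) and 77.2%, 73.4% and 79.7% with 96528. The clone 1 library with 96526 was thus the highest of the 6 relative to its control, and in line 4 and clone 7 the constructs lay within 3 percentage points.

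Over the 3 lines, Chd1 averaged 178 ± 28.6 CPM with 96526 and 167 ± 19.8 CPM with 96528 (SD, n = 3 each). The fitted difference, 96526 minus 96528, was 0.09 ± 0.08 on the log2 scale (SE), with a 95% interval of -0.08 to 0.26 and an adjusted p of 0.97 in edgeR's quasi-likelihood test. An exact two-sided sign-flip test of the 3 within-line differences gave p = 0.75, where 0.25 is the smallest value that 3 lines allow. Against the matched controls Chd1 was -0.29 ± 0.08 with 96526 (edgeR unadjusted p = 0.00424, adjusted p = 0.9998). With 96528 it was -0.38 ± 0.08 (edgeR unadjusted p = 0.000731, adjusted p = 0.202). Neither was past the threshold, which applies to p adjusted over all genes tested. Map3k7 mRNA did not separate the constructs either. It measured 137, 138 and 138 CPM in line 4 (control, 96526, 96528), 42.7, 41.4 and 40.7 CPM in clone 1, and 39.8, 41.9 and 39.0 CPM in clone 7.

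**Figure D1:**
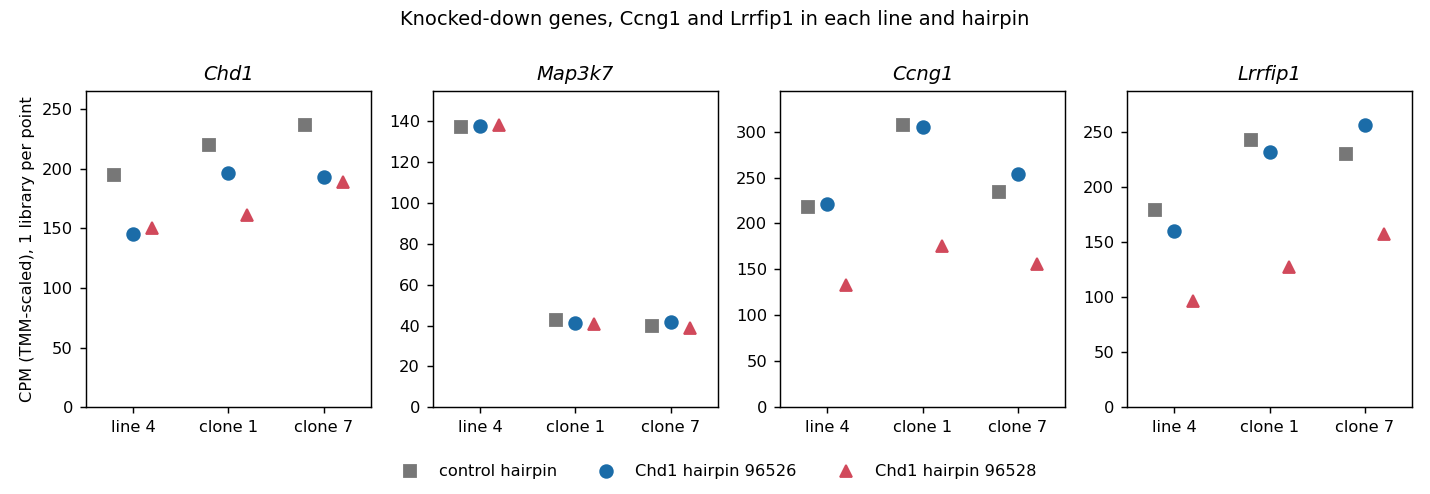
CPM of Chd1, Map3k7, Ccng1 and Lrrfip1 on linear axes from 0, 1 point per library, by line (horizontal) and hairpin (colour and shape). Chd1 is below control with both constructs in every line, while Ccng1 is low where 96528 was used: 133 to 176 CPM of Ccng1 against 217 to 307 CPM in the 6 other libraries. For Lrrfip1 the 96528 library is the lowest of the 3 in each line.

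The gene that separated the constructs past the threshold was Ccng1, which encodes cyclin G1 and is a known p53 target. It was 1 of 13711 genes tested (0.00729% called in either direction), and none was called lower (0%). Ccng1 (chr11:40748552-40755311) measured 221, 305 and 254 CPM with 96526 (line 4, clone 1, clone 7) and 133, 176 and 156 CPM with 96528. The matched controls measured 217, 307 and 234 CPM. All 3 libraries of 96528 lay below all 3 of 96526 and all 3 controls, and the 96526 libraries overlapped the controls.

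Set against its own control, Ccng1 stood at 102%, 99.3% and 109% with 96526 and at 61.1%, 57.3% and 66.5% with 96528. The constructs differed by 0.74 ± 0.06 on the log2 scale (edgeR adjusted p = 0.0135), with within-line values of 0.74, 0.79 and 0.71. Ccng1 fell with 96528 against control by 0.70 (edgeR adjusted p = 0.0113), and with 96526 it differed from control by 0.04 (edgeR adjusted p = 0.9998). The log2 difference between constructs ranged from 0.70 to 0.78 over 19 alternative fits, with the same sign in all 19, and passed the threshold in 11. The call was lost without the block for line, without the 96526 or 96528 library of clone 1 (adjusted p = 0.367 and 0.185), without that of clone 7 (0.367 and 0.118), without 96526 in line 4 (0.232), and with clone 1 or clone 7 left out (0.771 and 0.440), all in edgeR. The number of genes called between the constructs was 3 without the control of line 4 or of clone 7, and 5 without 96528 in line 4.

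Lrrfip1, which encodes a nucleic-acid-binding protein that interacts with the actin regulator flightless I, had the second-smallest p and the same layout. Lrrfip1 (chr1:90998737-91128944) measured 160, 233 and 257 CPM with 96526, 96.5, 127 and 157 CPM with 96528, and 180, 243 and 230 CPM in the controls. In each line 96528 was the lowest of the 3 libraries, at 53.6%, 52.3% and 68.4% of control, against 89.1%, 95.6% and 112% with 96526. The construct difference was 0.77 ± 0.09 (edgeR adjusted p = 0.0603, not past the threshold). It was past the threshold in 7 of 19 alternative fits, DESeq2 and limma voom among them (adjusted p = 2.52e-11 and 0.0202). Lrrfip1 fell with 96528 against control by 0.80 (edgeR adjusted p = 0.0155). The 96526 libraries, at 160 CPM and above, did not overlap the 96528 libraries, and overlapped the controls.

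At an unadjusted p under 0.05, 791 genes separated the constructs (5.77% of those tested), 451 with higher levels with 96526 (3.29%) and 340 with lower levels (2.48%). By direction alone, 2272 genes (16.6%) were higher with 96526 in all 3 lines and 1921 (14%) were lower in all 3. The remaining genes named here have the same sign in all 3 lines and the next smallest p. None passed the threshold in the main edgeR fit: adjusted p = 0.263 for 10 of those higher and 0.263 to 0.499 for the 12 lower. Of 19 alternative fits, Il1a passed in 7, Barx2 in 4 and each of the others in 0 to 2. These genes are a description of the leading end of this comparison.

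Among the signalling genes at that end, Il1a had the widest difference. Il1a, the cytokine interleukin-1 alpha, measured 0.249, 1.14 and 50.9 CPM with 96526 (line 4, clone 1, clone 7), 0.126, 0.319 and 6.67 CPM with 96528, and 1.03, 2.33 and 37.0 CPM in the controls. Its level was substantial only in clone 7, and in line 4 it lay near the level of 3 counts (0.193 and 0.202 CPM). The fitted log2 difference was 2.61 ± 0.37, and it was 1.58 with clone 7 left out. Il1a passed the threshold in 7 of 19 alternative fits, limma voom and DESeq2 among them (adjusted p = 0.0161 and 2.58e-05). Tgfb1, the ligand TGF-beta 1, measured 67.3, 20.1 and 16.4 CPM with 96526 and 47.6, 14.96 and 12.3 CPM with 96528 (log2 difference 0.45 ± 0.07). Its controls, at 61.4, 18.9 and 16.6 CPM, lay beside the 96526 values. Dusp9, a phosphatase of MAP kinases, differed by 0.70 ± 0.12, with 10.1, 20.2 and 29.6 CPM against 6.44, 11.3 and 19.3 CPM. Hipk3, a protein kinase, differed by 0.40 ± 0.07.

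Scaffold, membrane, corepressor and other genes made up the rest of the higher side. Akap12, a scaffold of protein kinase A, measured 4.97, 11.3 and 8.12 CPM with 96526 and 2.72, 6.07 and 4.19 CPM with 96528 (log2 difference 0.91 ± 0.15). Flnc, the actin cross-linker filamin C, measured 131, 143 and 111 CPM against 93.6, 92.0 and 86.6 CPM (0.50 ± 0.09). Lcor, a corepressor of ligand-bound nuclear receptors, measured 11.004, 26.9 and 26.4 CPM against 7.90, 19.1 and 17.5 CPM (0.52 ± 0.08). In Lcor the 96526 libraries lay within 3% of their controls in every line, at 101%, 99.3% and 103%, and the 96528 libraries at 72.3%, 70.4% and 68.4%. Asnsd1 (0.50 ± 0.08), the chloride/proton exchanger gene Clcn5 (0.40 ± 0.07) and the surface-protein gene Ly6c1 (0.56 ± 0.10) had differences of the same sign.

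The lower side held several chromatin and cell-division genes. Hmgn2, a nucleosome-binding protein, measured 137, 114 and 107 CPM with 96526 and 167, 152 and 133 CPM with 96528 (log2 difference -0.34 ± 0.07). Hmgb2, an HMG-box chromatin protein, measured 133, 150 and 239 CPM against 168, 180 and 282 CPM (-0.28 ± 0.06). H2afv, a histone variant of the H2A.Z type, was at -0.37 ± 0.09, the kinetochore gene Cenpk at -0.60 ± 0.13, and Cdca7, a cell-division-cycle-associated gene, at -0.34 ± 0.07. Sun2, a nuclear envelope protein, was at -0.32 ± 0.07.

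Metabolic and signalling genes followed. Aldh3a1, an aldehyde dehydrogenase, measured 143, 14.6 and 9.62 CPM with 96526, 208, 32.9 and 17.5 CPM with 96528 and 155, 18.3 and 15.4 CPM in the controls (log2 difference -0.84 ± 0.14). Arrdc3, an alpha-arrestin, measured 50.3, 7.43 and 8.22 CPM against 69.9, 12.4 and 17.3 CPM (-0.73 ± 0.13). Traf1, an adaptor of TNF receptors, measured 2.92, 2.64 and 4.08 CPM against 5.18, 5.06 and 9.68 CPM (-1.02 ± 0.21). In each of these genes 96528 lay above control in all 3 lines. Barx2, a homeobox factor, had the widest difference on this side, -1.39 ± 0.31, from 2.61, 9.80 and 2.27 CPM against 3.10, 27.1 and 9.68 CPM, and of -0.24 in line 4. Rgs2, a regulator of G-protein signalling, was at -0.48 ± 0.10, and Ppp2r3a, a regulatory subunit of phosphatase PP2A, at -0.40 ± 0.09.

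Beside the controls, most of the named genes had the same layout in the fit over the 3 lines. By fitted log2 difference, 96526 was the construct nearer to control in 23 of the 24 genes named for the construct difference. These were all 12 higher and 11 of 12 lower, and 96528 was nearer in 1, Cenpk. Single lines could depart from this. Aldh3a1 in clone 7 was at 62.4% of control with 96526 and 114% with 96528, and Barx2 in line 4 at 65.5% and 77.7%. Cenpk was at 70.0%, 90.0% and 76.3% of control with 96526 and at 121%, 121% and 115% with 96528. The 24 genes were picked by the difference between the constructs, and both are set against the same controls, so these counts are a description with no test. The share over all genes was not counted. Over the 10311 genes, 96528 also lay farther from control than 96526 in each line. The root-mean-square log2 difference was 0.245 to 0.409 with 96528 and 0.176 to 0.301 with 96526.

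**Figure D2:**
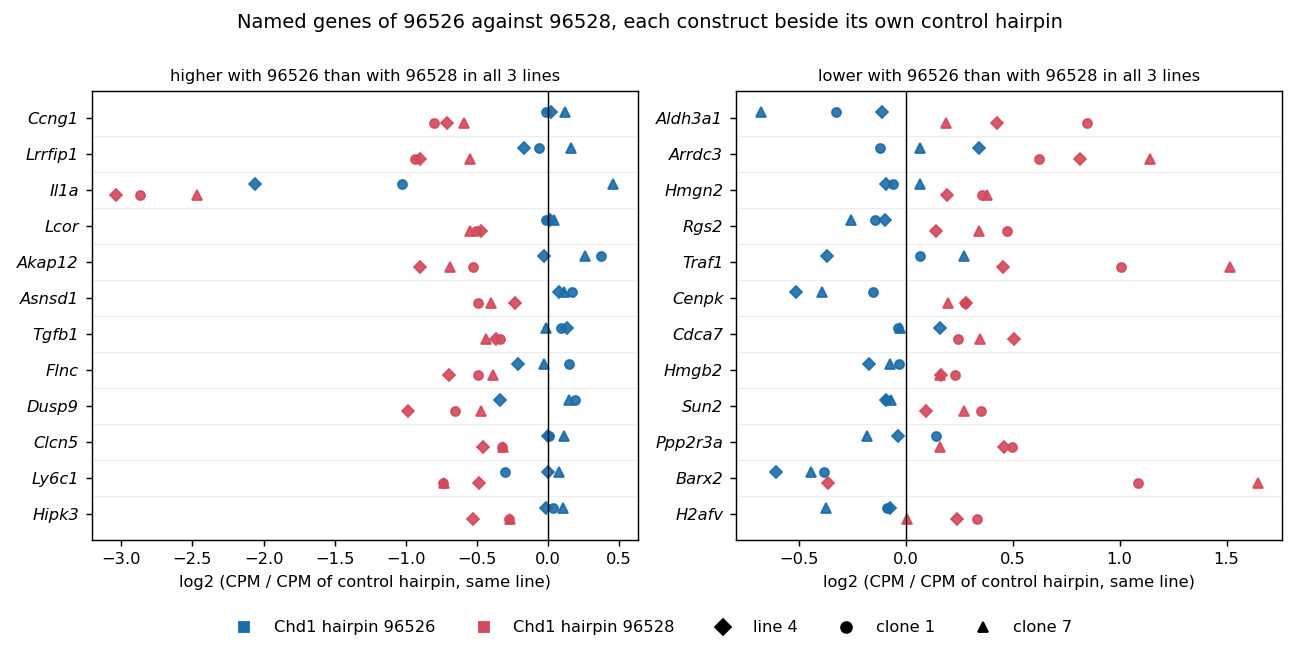
Log2 ratio of the CPM of each construct to the CPM of the control hairpin of the same line, for the 12 genes named as higher (left) and the 12 as lower (right) with 96526. Colour marks the construct and shape the line, and each point is 1 library. The 96526 points cluster at 0 for most genes, whereas the 96528 points of the left panel all lie below 0.

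Each construct was also tested against the control hairpin of the same lines. With 96526, 6 genes rose and none fell (0.0438% called). With 96528, 4 rose (0.0292%) and 2 fell (0.0146%), which also makes 0.0438% called. At an unadjusted p under 0.05 the counts were 381 genes (2.78%) with 96526, 1.82% higher and 0.955% lower than control, and 1173 (8.56%) with 96528, 4.27% higher and 4.28% lower. The 2 that fell with 96528 were Ccng1 and Lrrfip1. All those that rose were expressed almost only in line 4. Atp12a, a proton pump subunit, measured 9.21 CPM in the line 4 control, 84.1 with 96526 and 71.5 with 96528, and at most 0.06 CPM in any clone library. Igfbp5, an IGF-binding protein, measured 2.12, 90.6 and 49.3 CPM in line 4, and the collagen gene Col3a1 measured 18.0, 90.9 and 87.1 CPM.

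The noradrenaline transporter gene Slc6a2 measured 23.9, 75.5 and 74.7 CPM in line 4. Those 4 genes were called with both constructs, and Dpysl3 and Cacna1g with 96526. Dpysl3, a neuronal cytoskeleton-associated protein, measured 155 CPM in the line 4 control, 374 with 96526 and 203 with 96528. Cacna1g, a T-type calcium channel subunit, measured 72.1, 185 and 154 CPM. Between the constructs themselves none of the 6 was called in the main fit, while DESeq2 and edgeR without the low-count filter called Dpysl3. The log2 difference in the main fit was 0.92 for Dpysl3, 0.51 for Igfbp5, 0.31 for Cacna1g, 0.23 for Atp12a, 0.02 for Col3a1 and -0.02 for Slc6a2. The levels of Dpysl3 and Igfbp5 in line 4 were the ones in which the constructs lay farthest apart.

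The calls against control rested on single libraries. Without the line 4 control, both comparisons with control called 0 genes (380 and 985 at an unadjusted p under 0.05, edgeR), and without 96526 in line 4 both called 0 as well (207 and 1008). Without any 1 of the control of clone 1, 96528 of clone 1, 96526 of clone 1 and 96528 of clone 7, 96526 had 2 calls. For 96528 the count was 1 without its own clone 1 library, 10 without its line 4 library and 14 without the control of clone 7. Both comparisons share the control libraries, so their counts are not independent. Fibroblast markers, Col3a1 among them, summed to 49.2 CPM in the line 4 control and to 134 and 127 CPM with the constructs, and to at most 10.7 CPM in the clones, with Lum and Thy1 at 0 throughout. Col3a1, itself among the called genes, reached 90.9 CPM, so the sum is not separate from the calls. The part of fibroblast markers in the result was not tested.

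The construct differences of 1 line did not carry over well to another. Over the 10311 genes, the 96526 minus 96528 difference correlated between line 4 and clone 1 with r = 0.02, between line 4 and clone 7 with r = 0.13, and between clones 1 and 7 with r = 0.30. These are descriptions across genes, which are not independent replicates. The lines of a pair share no library, but each line enters more than 1 pair, so the correlations are not independent of each other. Clones 1 and 7 share the Map3k7 hairpin. The sign was the same in 47.4%, 54.4% and 62.1% of the genes. Both clones had a difference of at least 2-fold with the same sign in 10 genes and with opposite signs in 2. Between line 4 and clone 1 these counts were 2 and 1, and between line 4 and clone 7 they were 6 and 1.

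**Figure D3:**
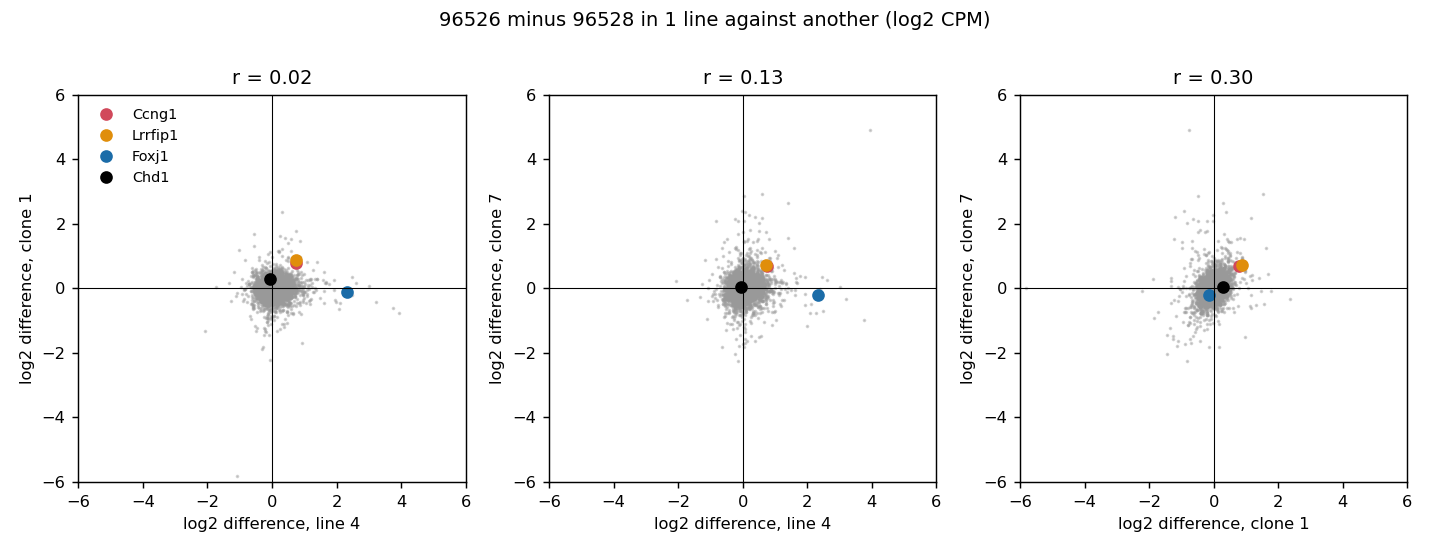
Log2 CPM difference, 96526 minus 96528, of each of 10311 genes in 1 line (horizontal) against another line (vertical), with Pearson's r above each panel. Ccng1 and Lrrfip1 lie at about the same positive value in every line, Chd1 lies near 0, and Foxj1 is displaced in line 4 alone.

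Whether line 4, which has no Map3k7 hairpin, differed from the Map3k7 clones in the construct difference was tested as an interaction with 2 residual degrees of freedom. Line 4 has 1 library of each hairpin, so the spread in this test comes from the 2 clones alone and line 4 is assumed to vary like them. It called 8 genes (0.0583%), all with a more positive 96526 minus 96528 difference in line 4, and none lower. At an unadjusted p under 0.05 there were 1155 genes (8.42%), 811 higher (5.91%) and 344 lower (2.51%). Of the 8, 5 have established names: Foxj1, Adam12, Cldn4, Nuak1 and Sod3. The other 3 were the predicted genes Gm28438 and Gm20458 and the pseudogene Pgam1-ps2, whose reads can be shared with near-identical sequences. In line 4 the constructs also differed in passage (52 and 50), so the Map3k7 hairpin, the line and the passage cannot be told apart in these results.

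Foxj1, a transcription factor of motile cilia (chr11:116330704-116335399), measured 18.2 CPM in the line 4 control, 12.5 with 96526 and 2.40 with 96528. In the clones it was 223 to 266 CPM with any hairpin. The construct difference was 2.33 in line 4, -0.13 in clone 1 and -0.21 in clone 7, and the interaction was 2.55 ± 0.18 (edgeR adjusted p = 0.0161). Adam12, a metalloprotease, measured 101, 39.4 and 16.9 CPM in line 4 (control, 96526, 96528), 173, 175 and 221 CPM in clone 1 and 149, 154 and 196 CPM in clone 7. The 96528 library was thus the lowest of its line in line 4 and the highest in each clone (interaction 1.56 ± 0.12, edgeR adjusted p = 0.0161).

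Cldn4, a tight-junction claudin, measured 50.6, 55.0 and 17.4 CPM in line 4, 155, 135 and 120 CPM in clone 1, and 204, 195 and 156 CPM in clone 7. It was lowest with 96528 in all 3 lines, but by 1.65 on the log2 scale in line 4 against 0.17 and 0.32 in the clones (interaction 1.41 ± 0.13, edgeR adjusted p = 0.0290). Nuak1, an AMPK-related kinase, measured 42.8, 40.0 and 25.5 CPM in line 4, 75.4, 64.0 and 109 CPM in clone 1, and 144, 116 and 240 CPM in clone 7. In line 4 the 96528 library was the lowest and in each clone the highest. Its interaction was 1.57 ± 0.16 (edgeR adjusted p = 0.0363). Sod3, the extracellular superoxide dismutase, measured 360 and 304 CPM in line 4 (96526, 96528), 21.2 and 51.1 CPM in clone 1, and 17.1 and 47.8 CPM in clone 7, with controls of 425, 15.3 and 17.4 CPM. Its interaction was 1.61 ± 0.17 (edgeR adjusted p = 0.0386), and the sign of the construct difference in line 4 was opposite to that in both clones.

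**Figure D4:**
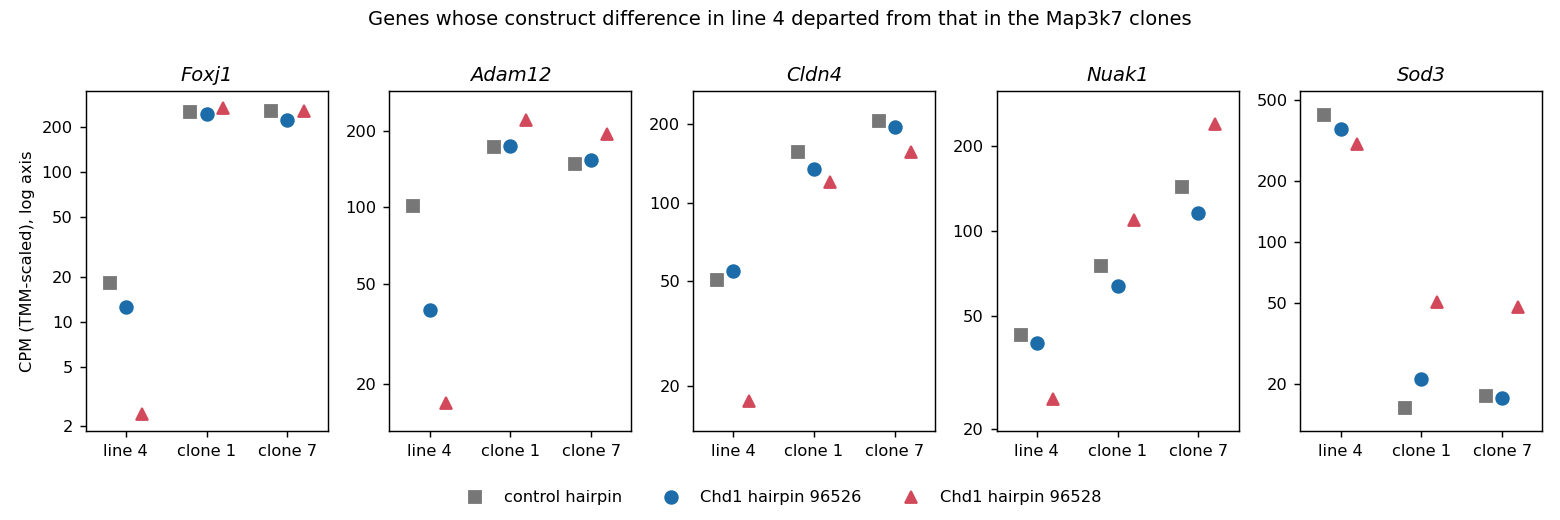
CPM (log axis) of the 5 named genes whose construct difference in line 4 departed from that in clones 1 and 7, 1 point per library, by line and hairpin. In line 4 the 96528 library is the lowest of the 3 for each gene, while in both clones it is the highest for Foxj1, Adam12, Nuak1 and Sod3 and the lowest for Cldn4.

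These calls depended on which libraries entered. Without the 96526 library of clone 1 or of clone 7, no interaction was called (0 each, with 662 and 592 genes at an unadjusted p under 0.05, edgeR). Without the 96528 library of clone 1 there were 36 calls and without that of clone 7 there were 14. Without the control of clone 1 or clone 7 the counts were 735 and 744, from 1 residual degree of freedom. The counts of 0, 36 and 14 also came from 1 residual degree of freedom. Without the line 4 control there were 8 calls. Genes named for the opposite sign did not pass. Among them, the secreted semaphorin gene Sema3c had an interaction of -0.61 ± 0.11, the transcription factor gene Tfcp2l1 -0.93 ± 0.17, the nuclear transport factor gene Nutf2 -0.86 ± 0.17, and the mitochondrial gene mt-Co3 -1.14 ± 0.21 (edgeR adjusted p = 0.181, 0.181, 0.208 and 0.189).

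In mt-Co3, the 96528 library of line 4 stood at 712 CPM, against 281 to 443 CPM in the 8 other libraries. Nanp, a sialic acid phosphatase gene, had 0 counts with 96526 in line 4, where 3 counts are 0.193 CPM, 10.2 CPM with 96528 and 3.78 CPM in the control. Nanp overlaps Ninl on the same strand, so its counts depend on how shared reads were divided.

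Within each line, 1 library stood against 1, with no test. Of the genes with at least 5 CPM in the higher library, 42 of 10563 were at least 2-fold higher with 96526 in line 4 (0.398%) and 13 at least 2-fold lower (0.123%). In clone 1 the counts were 7 (0.0684%) and 14 (0.137%) of 10238, and in clone 7 they were 32 (0.316%) and 25 (0.247%) of 10140. Clone 1 thus had the fewest, and its SD of the log2 differences, 0.20, was below those of line 4 (0.27) and clone 7 (0.24). The construct libraries of clone 1 were also the deepest, at 23163709 (96526) and 22329280 counts (96528). The part of depth in these counts was not tested.

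On the higher side of line 4, among genes of at least 10 CPM, the widest differences beside Foxj1 and Cldn4 were in Krt6a, a stress keratin, and L1cam, a cell adhesion molecule. Krt6a measured 10.9 CPM with 96526 and 2.15 with 96528, with a control of 59.5 CPM, and its reads can be shared with its paralog Krt6b. L1cam measured 13.1 and 3.73 CPM, with a control of 14.95. On the lower side, the helix-loop-helix genes Id2 (6.65 and 16.9 CPM) and Atoh8 (4.72 and 12.001 CPM) stood with Nanp and Pcdhgc4. Pcdhgc4 shares exons with the rest of its protocadherin cluster, and measured 2.36 and 10.3 CPM.

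On the higher side of clone 1, Ccnd2, the G1 cyclin D2, had the widest difference among genes of at least 10 CPM: 69.2 CPM with 96526 and 22.3 with 96528, with a control of 59.0. Ccnd2 measured 57.5, 24.0 and 86.7 CPM in clone 7 (96526, 96528, control), and line 4 measured 14.2, 12.1 and 24.3 CPM. The fitted Ccnd2 difference was 1.13 ± 0.23 (edgeR adjusted p = 0.396). The imprinted gene Peg3 (51.4 and 22.3 CPM), the Slit receptor gene Robo1 (15.3 and 6.75 CPM) and the xylosyltransferase gene Gxylt2 (11.998 and 5.97 CPM) followed, with clone 1 controls of 27.3, 7.05 and 6.27 CPM that lay beside the 96528 values.

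On the lower side of clone 1, Lars2, the mitochondrial leucyl-tRNA synthetase gene, stood at 61.6 CPM with 96526 and 227 CPM with 96528, against 48.8 to 72.3 CPM in the 7 other libraries. AY036118, which was named after its value was seen, moved with it: 641 CPM in that library and 139 to 207 CPM in the 8 others. Gm42418, also named after its value was seen, was 402 CPM there and 210 to 282 CPM elsewhere. Their part in the Lars2 value was not tested. Barx2, Pcdhgc4 (4.13 and 10.5 CPM) and the transhydrogenase gene Nnt (12.2 and 30.5 CPM, control 23.3) made up the rest.

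On the higher side of clone 7, 4 genes led. Il1a (50.9 and 6.67 CPM), the chemokine gene Ccl2 (12.3 and 1.89 CPM), the iron-carrier gene Lcn2 (10.6 and 1.95 CPM) and Tnfaip2, a TNF-induced gene (11.7 and 2.18 CPM), were higher with 96526. Their clone 7 controls were 37.0, 7.85, 29.9 and 9.86 CPM, so that 96528 was the lowest library for each. On the lower side stood the collagen gene Col11a1 (6.82 and 22.7 CPM), the stress keratin gene Krt16 (5.07 and 15.4 CPM), Sod3 and Lrrc75b (9.72 and 24.9 CPM). Col11a1 was 187 and 188 CPM in line 4.

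Among NF-kB targets, cytokine and feedback genes that TAK1 signalling feeds, none of the 30 tested passed the threshold in the main fit. At an unadjusted p under 0.05 there were 5 higher and 1 lower, beside 3.29% and 2.48% of all genes. The median log2 difference was 0.11 in line 4, -0.01 in clone 1 and 0.55 in clone 7, against 0.02, 0 and 0.00 over all genes tested. In clone 7, 26 of the 30 were higher with 96526, against 20 in line 4 and 14 in clone 1, beside 50.3%, 53.3% and 49.9% of all genes. A difference between the lines was not tested for the list. In all 3 lines, 11 of 30 were higher (36.7%), beside 16.6% of all genes. Il1a and Traf1 were the members of smallest p, with opposite signs: Traf1 was lower with 96526 in all 3 lines, at -0.80, -0.91 and -1.22. The fitted median was 0.21, and 0.09 with clone 7 left out.

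Cell-cycle genes of S phase and mitosis were mostly a little lower with 96526. None of the 50 tested passed the threshold, 5 were lower at an unadjusted p under 0.05 and none higher, beside 2.48% and 3.29% of all genes. The sign was lower in 44 of 50 in line 4, 35 in clone 1 and 42 in clone 7, and in all 3 lines in 29 (58%), beside 14% of all genes. The median was -0.21, -0.05 and -0.08 in line 4, clone 1 and clone 7, and -0.11 in the fit, beside 0.01 over all genes. Rrm1, a ribonucleotide reductase subunit, measured 305, 310 and 294 CPM with 96526 and 373, 345 and 349 CPM with 96528, and 320, 323 and 305 CPM in the controls. Its construct difference was -0.29 in line 4, -0.16 in clone 1 and -0.25 in clone 7. Pola1, the catalytic subunit of DNA polymerase alpha, was at -0.33, -0.06 and -0.24. The list's median was -0.09 for 96526 against control and -0.00 for 96528 against control. Genes of the list are expressed together within a library, and their count is not a count of independent results.

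Epithelial genes were mostly higher with 96526 in line 4, where 1 library stands against 1. Of 33 tested genes of junctions and epithelial identity, 29 were higher with 96526 in line 4, beside 53.3% of all genes. In each clone 22 were lower, beside 49.8% of all genes in clone 1 and 49.0% in clone 7. The medians were 0.38, -0.09 and -0.04. The summed CPM of the list in line 4 was 3276 in the control, 2812 with 96526 and 2477 with 96528, so both constructs lay below control. In the interaction none passed the threshold, 17 of the 33 were higher in line 4 at an unadjusted p under 0.05, and none lower, beside 5.91% higher over all genes. Among these, Pkp3, a desmosomal plakophilin, had within-line differences of 0.50, -0.25 and -0.15, and Cdh1 (E-cadherin) 0.34, -0.06 and -0.13; both were named after their values were seen. Cldn1, a claudin, was instead higher in all 3 lines, by 0.55, 0.45 and 0.85, without passing in the main fit. DESeq2 and edgeR without the low-count filter called Cldn1 between the constructs.

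Of 16 luminal markers tested, 7 were higher in line 4 at an unadjusted p under 0.05 in the interaction, beside 5.91% of all genes, and 1, Cldn4, was called. Their medians were 0.37, 0.04 and 0.02. Of 15 basal markers, 6 were higher at an unadjusted p, beside the same 5.91%, with medians of 0.22, 0.10 and -0.17. The summed CPM of luminal markers was 3520 in the line 4 control, 2513 with 96526 and 2103 with 96528, and that of basal markers was 6054, 4502 and 4141. In the clones the luminal sums were 9104 to 9789 CPM in all 6 libraries.

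**Figure D5:**
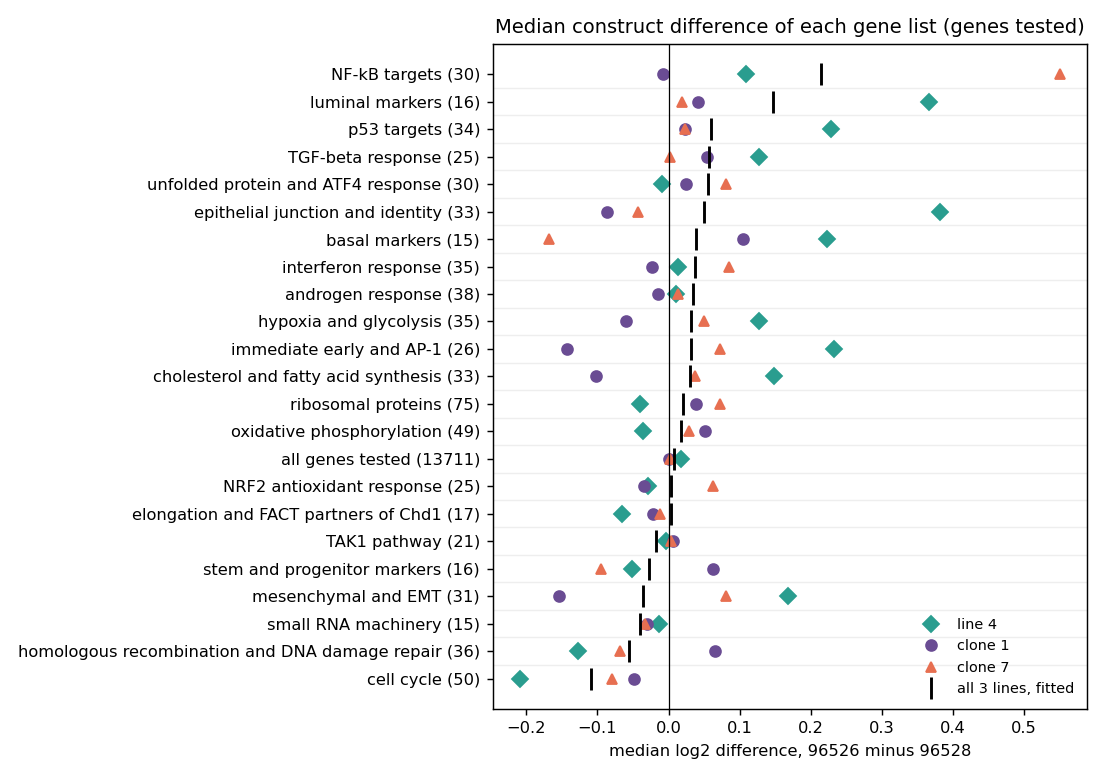
Median log2 difference, 96526 minus 96528, of the lists with at least 15 tested genes (number tested in parentheses), for each line (symbols) and in the fit over all 3 lines (bars). Line 4 stands apart to the right for epithelial, luminal and p53 genes, clone 7 for NF-kB targets, and cell-cycle genes are below 0 in all 3 lines.

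Of the 34 tested p53 targets, Ccng1 was the member called. At an unadjusted p under 0.05, 6 members, Ccng1 among them, were higher with 96526 and 1 lower, beside 3.29% and 2.48% of all genes. Cdkn1a, the cell-cycle inhibitor p21, had within-line differences of 0.59, 0.08 and 0.17, and Mdm2, the ubiquitin ligase of p53, 0.29, 0.28 and 0.06; both were named after their values were seen, and neither passed (edgeR adjusted p = 0.811 and 0.758). The list's medians were 0.23 in line 4, 0.02 in clone 1 and 0.02 in clone 7. With line 4 left out, the fitted median was -0.00, against 0.06 with it. Ccng1, which stands out by its small p in this same comparison, differed by 0.79 and 0.71 in clones 1 and 7. Whether it departed from the rest of its list was not tested.

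The remaining lists had no member called in the main fit, and their counts at an unadjusted p under 0.05 stand beside 3.29% of all genes higher and 2.48% lower. Among 25 TGF-beta response genes, 4 were higher at an unadjusted p under 0.05 and none lower (median 0.06), with Tgfb1 and Bmp4, a BMP ligand, the members of smallest p. Bmp4 measured 56.0, 283 and 109 CPM with 96526 and 51.2, 229 and 85.4 CPM with 96528. Among 31 mesenchymal genes, 3 were higher and none lower (median -0.04). Their leading members were Mmp2, a matrix metalloprotease at 10.8 and 3.73 CPM in line 4 and near 0 in the clones, and Tnc, the matrix protein tenascin C. Tnc measured 382, 1049 and 821 CPM with 96526, 251, 753 and 530 CPM with 96528, and 514, 1178 and 663 CPM in the controls. Its log2 difference was 0.57 ± 0.13 (edgeR adjusted p = 0.471). Tnc was past the threshold with the 6 construct libraries fitted alone, with DESeq2 and with edgeR without the low-count filter. In each line its 96528 library was the lowest.

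Among 38 androgen-response genes, 2 were higher and 3 lower at an unadjusted p (median 0.03), and Steap2, a metalloreductase, led with 0.41 ± 0.09. Of 26 immediate early genes, 3 were higher and 2 lower, with Jun, a subunit of AP-1, at -0.36 ± 0.11. Of 16 stem and progenitor markers, 1 was higher and 2 lower. Of 25 NRF2 targets, 1 was higher and 3 lower, with Nqo1, a quinone reductase, at -0.77 ± 0.21. The 30 genes of the unfolded protein and ATF4 response had 2 higher and 1 lower, and the 35 of hypoxia and glycolysis had 1 each way. Among 36 DNA repair genes and 33 of cholesterol and fatty acid synthesis, 1 each was higher and none lower. Of 7 drug efflux transporters 1 was higher, Abcc4, at 0.35 ± 0.11. None of the 75 ribosomal protein genes or the 49 subunits of oxidative phosphorylation was past an unadjusted p, with medians of 0.02 each, and neither was any tested marker of fibroblasts, smooth muscle, endothelium, immune or neuroendocrine cells (1 to 5 tested per list).

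Genes near to Chd1 in function and those of the silencing machinery had no member called. Of the 10 CHD family genes none passed, none was past an unadjusted p of 0.05, and the median was 0.06. Of 17 elongation factors and FACT subunits that act with Chd1, 1 was lower at an unadjusted p, 6 (35.3%) were lower in all 3 lines beside 14% of all genes, and the median was 0.00. Of 15 genes of small RNA machinery, which processes hairpins, none was past an unadjusted p, 4 (26.7%) were lower in all 3 lines, and the median was -0.04. Ago2, the slicing Argonaute, measured 185, 214 and 204 CPM with 96526 and 189, 233 and 258 CPM with 96528. Of the 21 tested genes of the TAK1 pathway, 1 was higher and 1 lower at an unadjusted p, and the median was -0.02. Interferon-response genes, which double-stranded RNA can induce, had 1 higher and 1 lower of 35, with a median of 0.04.

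Mitochondrially encoded transcripts summed to more with 96526 than with 96528 in each line: 22385 and 19084 CPM in line 4, 18909 and 18131 CPM in clone 1, and 22846 and 19970 CPM in clone 7. Their controls were 18132, 19160 and 22246 CPM. The part of this difference in the other results was not tested. By chromosome, the median difference of the tested genes stayed between -0.04 and 0.07 in line 4, between -0.03 and 0.08 in clone 1 and between -0.05 and 0.04 in clone 7. The highest of these was chromosome 11 in clone 1, at 0.08 over 1062 genes, beside 0.05 in line 4 and 0.01 in clone 7. Chromosome 11 holds Ccng1 and Foxj1, and the part of its median in their differences was not tested.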

How the data were processed

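RNA of WFU3 cells was sequenced after oligo(dT) selection. The deposited table holds expected counts per gene, which the authors made with Bowtie2 and RSEM 1.3.1 on GRCm38, per the submitters' processing notes; limma is also named there. The sources used here do not give the strand setting or the annotation. RSEM divides reads shared between similar or overlapping genes. The deposited normalized table was not used.

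Expected counts were rounded to whole numbers (7.83% to 9.11% of cells per library were not whole) and tested with edgeR 4.0.16 in R 4.3.3. Of 48299 genes, 13711 passed filterByExpr (minimum count 10, minimum total 15), and 13545 of these matched GENCODE M21 by symbol for coordinates. Dates stood in place of 25 symbols, 16 of them tested, which cannot be named. Libraries were scaled by TMM. The model had the line as a block and hairpin state (control, 96526, 96528) over 9 libraries, which left 4 residual degrees of freedom, and p-values came from the quasi-likelihood F-test with Benjamini-Hochberg adjustment over all genes tested (threshold 0.05). A second model added line 4 against the clones. Log2 differences within a line used a prior count of 2. A level of 3 counts was 0.130 to 0.212 CPM; counting error only is covered by that floor.

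The line pairs the samples because each library of a line derives from the same clone. Deviations of 96526 and 96528 from their group means correlated at r = 0.965, 0.917 and 0.932 in line 4, clone 1 and clone 7. Their highest correlation with a library of another line was -0.683, 0.524 and 0.531. Named genes were those of at least 5 CPM with 1 sign in all 3 lines, the 12 widest called each way and then by smallest p; 5 each way for line 4 against the clones; 4 each way within each line, of at least 10 CPM; and up to 3 called or 2 other members of each of 29 gene lists. Predicted genes were passed over, and some genes are not reported here. The members, lists and rules were chosen with earlier results of these data known. The edgeR test between the constructs was tried on simulated counts, and the other tests were not. Alternatives were DESeq2 1.42.0, limma voom 3.58.1, other size factors, no filter, other sets of libraries, and each library or line left out.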

Additional observations from a re-analysis of the deposited data

Results flagged for a closer look

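The difference between the constructs in line 4 departed from that in the Map3k7 clones, by a test of the interaction itself, for 8 genes. The log2 interaction was 2.55 for Foxj1, 1.56 for Adam12, 1.41 for Cldn4, 1.57 for Nuak1 and 1.61 for Sod3, each more positive in line 4. With 1 library per construct in line 4, these values rest on the pair at passages 52 and 50, and the spread in the test comes from the 2 clones alone, on 2 residual degrees of freedom. Leaving out 1 library moved the count from 8 to between 0 and 744. Groups of 3 libraries were too small to look for single libraries far from the others.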

How the results depend on the processing

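The difference in Chd1 between the constructs kept to the same side of the threshold under all 19 alternatives (log2 difference -0.01 to 0.16, 0 past it). The counts of genes moved. Without the replicate block for line, 0 genes differed between the constructs, and 0 and 0 between 96526 or 96528 and control (52, 15 and 70 at an unadjusted p under 0.05, edgeR). With only the 6 construct libraries 5 genes differed between the constructs. With no low-count filter the counts were 42 for the constructs, 23 and 141 for 96526 and 96528 against control, and 139 for the interaction. With DESeq2 they were 27, 2, 62 and 54, and with limma voom 3, 14 and 23, with 8 for the interaction. With line 4, clone 1 or clone 7 left out, 8, 0 and 0 genes differed between the constructs, 0, 2 and 5 between 96526 and control, and 3, 0 and 3 between 96528 and control. Leaving out 1 library at a time gave 0 to 5 for the constructs, 0 to 6 for 96526, 0 to 14 for 96528, and 0 to 744 for the interaction, which could not be fitted without a line 4 construct library. The cause of these changes was not tested. DESeq2's size factors in edgeR and all 11 libraries left each count as reported; 2-fold counts within lines with those size factors, an alternative chosen after seeing the data, were 56, 21 and 57. Of the 29 list medians, 29 kept their direction with DESeq2's size factors, and 20, 24 and 23 with line 4, clone 1 or clone 7 left out.

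With 3 lines and differences that vary between them, depth limits genes of low level first: 3 counts were up to 0.212 CPM.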
